A study of Arabidopsis thaliana with 3 samples.

Results

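The beta-tubulin family of Arabidopsis thaliana, the 9 genes TUB1 to TUB9, was described in polyadenylated RNA of wild-type seedlings. The members, TUB1 (AT1G75780), TUB2 (AT5G62690), TUB3 (AT5G62700), TUB4 (AT5G44340), TUB5 (AT1G20010), TUB6 (AT5G12250), TUB7 (AT2G29550), TUB8 (AT5G23860) and TUB9 (AT4G20890), were taken by gene identifier, as 9 of the 37336 genes in the table of read counts. The 3 libraries (replicates 1, 2 and 3) were of whole, untreated Col-0 seedlings at 7 days of age, labelled wild type and grown under long days on agar medium with sucrose. They formed 1 group, so nothing here compares genotypes or treatments, although the series concerns cohesin subunits and H2A monoubiquitination. The libraries held between 27069921 and 32967215 counts. No label states that the replicates came from separate plants, so a p-value across them measures the spread of these samples, which may be technical.

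Microtubules are hollow polymers of alpha- and beta-tubulin dimers, and the beta subunit binds the nucleotide that is exchanged and hydrolysed as the polymer grows. In plants they form the cortical arrays that guide cellulose deposition and cell elongation, the preprophase band, the spindle and the phragmoplast that builds the new wall after division. Beta-tubulins of one plant are alike over most of their length and differ most in the acidic carboxy-terminal tail, which projects from the polymer and is bound by associated proteins and motors.

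The coding ends are shown because the encoded proteins are least alike there, although members also differ elsewhere and TUB2 and TUB3 encode the same tail. In an alignment of the encoded proteins, 383 of 453 columns (84.6%) held the same residue in all 9 members, but only 3 of the last 20 columns did. Each sequence below is the sense strand, 5′ to 3′, from RefSeq TAIR10.1, without the stop codon. The lower-case bases encode the last block of 5 residues shared by all members, and the capitals encode the tail.
TUB1: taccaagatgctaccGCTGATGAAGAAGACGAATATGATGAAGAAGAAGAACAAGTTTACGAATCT
TUB2: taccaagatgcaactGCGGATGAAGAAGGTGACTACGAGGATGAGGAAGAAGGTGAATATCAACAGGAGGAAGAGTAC
TUB3: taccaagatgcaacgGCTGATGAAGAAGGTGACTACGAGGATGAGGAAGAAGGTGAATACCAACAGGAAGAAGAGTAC
TUB4: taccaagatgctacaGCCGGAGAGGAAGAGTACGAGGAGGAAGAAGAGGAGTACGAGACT
TUB5: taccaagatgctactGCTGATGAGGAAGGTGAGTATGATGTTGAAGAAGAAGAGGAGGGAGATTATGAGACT
TUB6: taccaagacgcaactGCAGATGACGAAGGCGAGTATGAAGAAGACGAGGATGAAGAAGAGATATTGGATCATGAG
TUB7: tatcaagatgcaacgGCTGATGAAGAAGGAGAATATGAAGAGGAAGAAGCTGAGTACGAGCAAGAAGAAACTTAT
TUB8: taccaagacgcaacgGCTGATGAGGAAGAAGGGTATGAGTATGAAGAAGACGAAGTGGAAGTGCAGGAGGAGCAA
TUB9: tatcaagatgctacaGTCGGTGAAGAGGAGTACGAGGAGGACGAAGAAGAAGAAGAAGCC
The tails ran from 15 codons in TUB4 and TUB9 to 21 codons in TUB2 and TUB3. Acidic residues (aspartate or glutamate) took 12 of 20 tail codons in TUB7 and TUB8, the lowest share, and 11 of 15 in TUB9, the highest. The printed bases lie at chr1:28451381-28451446 (minus strand) for TUB1, chr5:25183421-25183498 (plus) for TUB2, chr5:25186346-25186423 (plus) for TUB3, chr5:17859445-17859504 (minus) for TUB4 and chr1:6938036-6938107 (minus) for TUB5. Those of TUB6 lie at chr5:3961320-3961394 (minus), of TUB7 at chr2:12644261-12644335 (minus), of TUB8 at chr5:8044451-8044525 (plus) and of TUB9 at chr4:11183778-11183837 (plus).

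TUB2 and TUB3 encode the same protein and stand in tandem on the plus strand of chromosome 5, TUB2 at 25181296 to 25183811 and TUB3 at 25184258 to 25186777, with 446 bases between them. Their coding sequences of 1353 bases differed at 32 positions, and 31 of these were the last base of a codon. The longest identical run in the coding sequence was 227 bases. The stretch of 60 coding bases with the most differences (bases 508 to 567, with 4) shows how little separates a read of one copy from a read of the other, and its capitals mark the differing bases. It lies at chr5:25182155-25182214 in TUB2 and chr5:25185098-25185157 in TUB3, both plus strand.
TUB2: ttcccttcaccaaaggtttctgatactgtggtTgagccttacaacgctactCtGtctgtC
TUB3: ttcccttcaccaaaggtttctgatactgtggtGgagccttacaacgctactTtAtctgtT
Any stretch of 100 bases in the transcript of TUB2 also occurred in TUB3 for 11.3% of start positions, and for 11.2% the other way round. At 50 bases these shares were 22.26% and 22.02%, and at 150 bases 4.556% and 4.505%. No source at hand gives the read length or the treatment of reads that match several genes, so the division of counts between TUB2 and TUB3 is uncertain. The other 7 members shared at most 4 stretches of 50 bases with another beta-tubulin gene, and none of 100 bases.

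The remaining proteins were 90.4% to 96.6% identical to one another. The nearest pair after TUB2 and TUB3 was TUB4 and TUB9, with 15 residues differing (96.6% identity), followed by TUB2 and TUB8 (20 residues, 95.56%) and TUB1 and TUB5 (20 residues, 95.55%). TUB4 and TUB9 were the 2 shortest proteins, at 444 residues each, and TUB1 had 447, while the others had 449 or 450. All 9 coding regions lay on 3 exons. TUB6 alone carried a further intron in its 5′ leader. The first intron was the longest in TUB5 (chromosome 1, minus strand, 6937719 to 6940832), at 1020 bases, and in TUB1 (chromosome 1, minus strand, 28451138 to 28453820), at 793 bases.

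**Figure D1:**
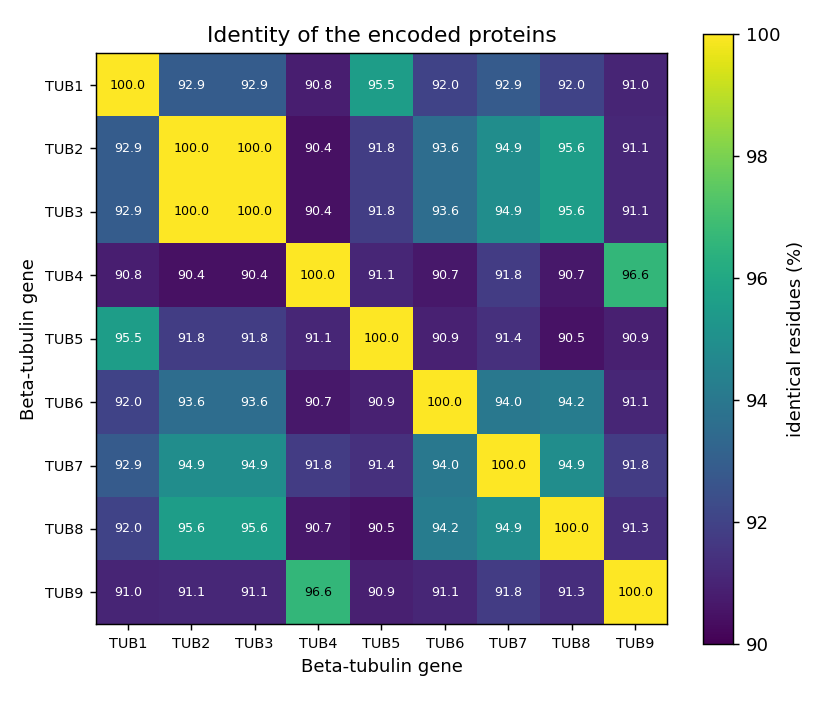
Percent identity between the proteins encoded by TUB1 to TUB9, for each pair of genes on both axes, with the colour scale running from 90% to 100%. TUB2 and TUB3 are identical, TUB4 and TUB9 form the next closest pair at 96.6%, and TUB4 and TUB2 are among the most distant at 90.4%.

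All 9 genes were transcribed in the seedlings, each at 1 CPM or more in every library, the level used here to call a gene detected (CPM, counts per 1000000 of the TMM-scaled library size). TUB4, TUB3, TUB2 and TUB6 were the abundant members and took 76.3% ± 1.33 of the family's counts (SD, n = 3), while TUB1 took 0.557% ± 0.278. TUB4 (chromosome 5, minus strand, 17859136 to 17861150) had 232 CPM in replicate 1, 289.8 in replicate 2 and 342 in replicate 3, a mean of 288 ± 55.0 CPM (SD, n = 3). TUB3 had 203, 285 and 327 CPM in replicates 1, 2 and 3, a mean of 272 ± 63.0 CPM. TUB2 had 242, 263 and 285 CPM, a mean of 263 ± 21.6 CPM. In these 3 genes replicate 1 was the lowest library and replicate 3 the highest, and TUB2 had the smallest coefficient of variation of the 9 members, 8.18%.

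TUB6 (chromosome 5, minus strand, 3960938 to 3963624), widely used as a reference gene in quantitative PCR, had 161, 219 and 249 CPM in replicates 1, 2 and 3. TUB8 (chromosome 5, plus strand, 8042853 to 8044934), known from reporter studies for activity in vascular tissue, had 65.6, 108 and 116 CPM. TUB7 (chromosome 2, minus strand, 12643917 to 12646057) had 53.0, 86.4 and 98.8 CPM. The first library was again the lowest for all 3 genes. TUB5 had 68.3, 74.7 and 91.0 CPM in replicates 1, 2 and 3. TUB9 (chromosome 4, plus strand, 11182092 to 11184559), whose expression has been described in pollen, had 49.8, 69.0 and 63.0 CPM. TUB5 and TUB9 were the steadiest of the less abundant members, with coefficients of variation of 15.0% and 16.2%.

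TUB1 was the rare member and the one that differed most between libraries. Its transcript is known to accumulate preferentially in roots and to be reduced by light. It had 92, 327 and 276 counts in replicates 1, 2 and 3, or 2.59, 10.7 and 10.6 CPM, with a coefficient of variation of 58.5%. Replicates 2 and 3 were nearly equal, and replicate 1 was 3.61-fold lower, a log2(CPM + 0.5) difference of −1.85 from their mean. As a share of the family's counts, which does not depend on library scaling, TUB1 made up 0.240% in replicate 1 (95% exact binomial interval 0.194% to 0.294%), 0.760% in replicate 2 (0.680% to 0.846%) and 0.670% in replicate 3 (0.593% to 0.753%). The interval of replicate 1 lay below those of the other 2 libraries. These intervals cover counting error only.

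To compare levels between genes, CPM were divided by the length of merged exons. Per kb, the order was TUB4 (160.2 ± 30.6 CPM per kb, SD, n = 3), TUB3 (139.5 ± 32.4), TUB2 (137 ± 11.2), TUB6 (107 ± 22.7), TUB8 (51.9 ± 14.6), TUB7 (43.7 ± 13.0), TUB5 (38.7 ± 5.82), TUB9 (27.8 ± 4.51) and TUB1 (4.42 ± 2.58). Among the 17050 detected genes with a length, TUB4 stood at percentile 96.6 by this measure and TUB1 at percentile 28.4. Of the 8 steps between neighbours in the order, 3 separated genes whose values did not overlap over the libraries. TUB6 stood 2.09-fold above TUB8 per kb (log2 ratio 1.06 ± 0.14, SD, n = 3), TUB5 stood 1.40-fold above TUB9 (0.48 ± 0.22) and TUB9 stood 7.47-fold above TUB1 (2.90 ± 0.95), each in 3 of 3 libraries. The exact two-sided permutation test that flips the signs of 3 log2 ratios has a smallest p of 0.25, which each of these steps took.

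At the other 5 steps the values of the neighbours overlapped over the libraries: TUB4, TUB3, TUB2 and TUB6 did so from neighbour to neighbour, as did TUB8, TUB7 and TUB5. Within libraries, the log2 ratio still had one sign in 3 of 3 for TUB4 to TUB3 (0.21 ± 0.09, SD, n = 3), TUB2 to TUB6 (0.38 ± 0.21) and TUB8 to TUB7 (0.25 ± 0.05), with the same exact p of 0.25. TUB3 to TUB2 and TUB7 to TUB5 kept their direction in 2 of 3 libraries. TUB2 and TUB3 changed places between libraries: TUB2 stood 1.20-fold above TUB3 per kb in replicate 1, and at 0.932 and 0.881 times TUB3 in replicates 2 and 3. By exon length, TUB4 was first and TUB1 last in each of the 3 libraries. TUB4 exceeded TUB1 per kb 89.9-fold in replicate 1, 27.2-fold in replicate 2 and 32.4-fold in replicate 3.

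**Figure D2:**
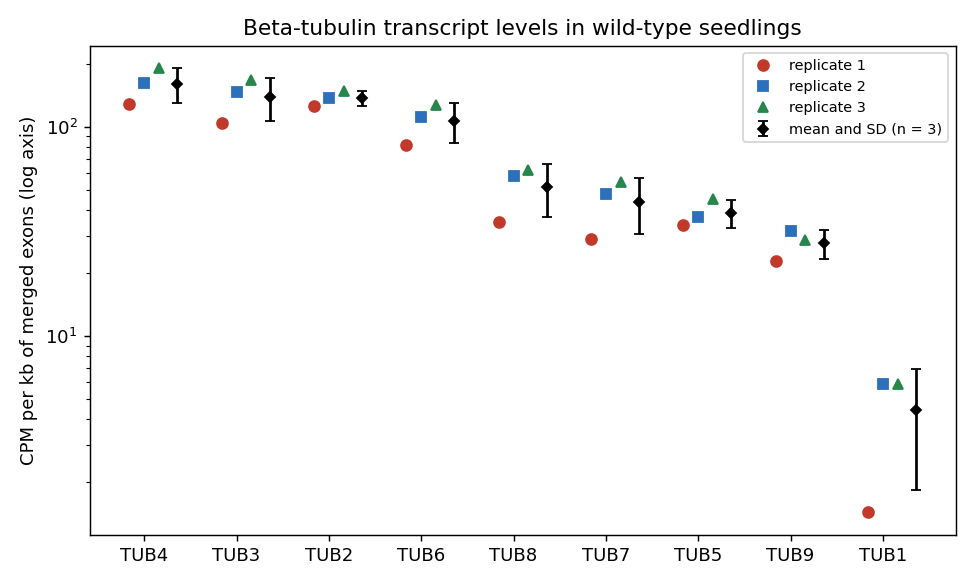
CPM per kb of merged exons (log axis) for each beta-tubulin gene, in order of the mean, with 1 symbol per library and the mean with its SD (n = 3) in black. Among TUB4, TUB3, TUB2 and TUB6 each gene overlaps its neighbour, as among TUB8, TUB7 and TUB5, and TUB1 lies lowest, with replicate 1 at 1.44 CPM per kb under 5.93 and 5.88 in replicates 2 and 3.

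Among the closest protein pairs, TUB2 and TUB3 had levels within each other's spread, but TUB4 and TUB9, TUB2 and TUB8, and TUB5 and TUB1, did not. TUB2 stood at 137 ± 11.2 CPM per kb and TUB8 at 51.9 ± 14.6. TUB4 exceeded TUB9, its nearest relative, 5.74-fold per kb (log2 ratio 2.52 ± 0.19, SD, n = 3), and TUB5 exceeded TUB1 10.4-fold (3.38 ± 1.03), in 3 of 3 libraries each. The ratio of TUB5 to TUB1 was 23.6 in replicate 1, 6.25 in replicate 2 and 7.68 in replicate 3.

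Exons of other genes overlapped those of TUB1, TUB7 and TUB9, and those of TUB6 over 4.22% of their length. No source at hand gives the strand setting or the treatment of reads in overlapping exons. The effect of overlap on the levels was not tested. Across the table, 1108 of 1140 genes whose exons are wholly covered by another gene's exons had 0 counts in every library (97.2%), against 34.6% of genes without such overlap. The exons of TUB1 overlapped others over 34.4% of their length, mainly AT1G75785 on the opposite strand (chromosome 1, 28451154 to 28451792), which lies wholly within TUB1 exons and had 0 counts in each library. Those of TUB7 overlapped the RNA polymerase subunit gene RPC14 over 22.8%, and those of TUB9 overlapped MS5, a gene of male meiosis, over 21.0%, both on the opposite strand. The level of RPC14 was 8.04 CPM in replicate 1, 5.56 in replicate 2 and 5.57 in replicate 3, and MS5 had 0 counts in each. Divided by the number of 100-base stretches found in no other gene in place of exon length, TUB1 came to 6.34 ± 3.70 CPM per kb, TUB9 to 35.2 ± 5.70 and TUB7 to 56.6 ± 16.9 (SD, n = 3). All counts were kept in this division, which is right only if reads from the other stretches were not counted. Whether they were is not known. TUB7 then stood just above TUB8 (54.8 ± 15.4), and the order of the other members by mean was kept. TUB4 no longer led in each library. TUB2 stood above TUB4 in replicate 1 (149 against 137 CPM per kb) and TUB3 did in replicate 2 (174 against 171). TUB4 led in replicate 3 (201, against 199 for TUB3). The log2 ratio of TUB4 to TUB3 came to 0.04, against 0.21 by exon length. TUB5, at 35.6, 39.0 and 47.5 CPM per kb in replicates 1, 2 and 3, then overlapped TUB9, at 28.9, 40.1 and 36.5, so that the separation of TUB5 from TUB9 was lost (log2 ratio 0.21, against 0.48 by exon length).

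In percentage points, the composition of the family outside TUB1 shifted most in TUB2 (SD 2.39 over the 3 libraries) and least in TUB6 (SD 0.416). TUB4 held 21.5%, 20.6% and 21.6% of the counts in replicates 1, 2 and 3, a mean of 21.2% ± 0.560 (SD, n = 3), and TUB6 held 14.9%, 15.6% and 15.7%. TUB2 held 22.5%, 18.7% and 18.0%, and TUB3 18.8%, 20.3% and 20.7%. Taken as a pair, TUB2 and TUB3 held 41.3%, 39.0% and 38.7%, so part of the shift in each was offset in the other. TUB8 held 6.09%, 7.70% and 7.35%, TUB7 4.92%, 6.14% and 6.25%, TUB5 6.34%, 5.31% and 5.75%, and TUB9 4.62%, 4.90% and 3.98% in replicates 1, 2 and 3. TUB2 and TUB5 thus made up more of the family in replicate 1 than in the other 2 libraries, and TUB1, TUB3, TUB6, TUB7 and TUB8 less.

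**Figure D3:**
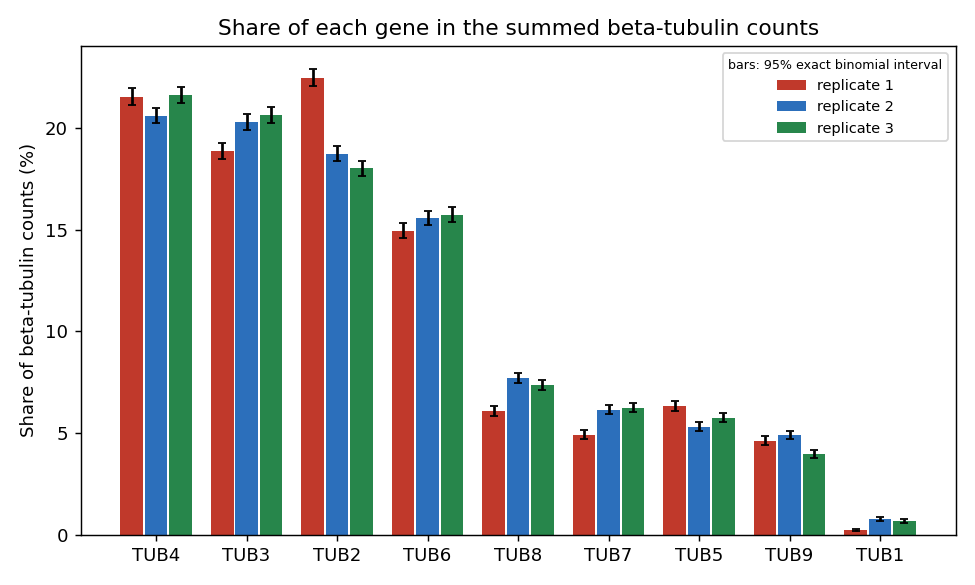
Share of each gene in the summed counts of the 9 beta-tubulin genes (%), with 1 bar per library and exact binomial 95% intervals. TUB2 holds 22.5% in replicate 1, against 18.7% and 18.0% in replicates 2 and 3, and TUB1 stays under 1% in each library.

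The libraries were not equally close, and replicate 1 stood apart over the whole table. In edgeR's goodness-of-fit test against the dispersion of genes of like abundance (Benjamini-Hochberg adjusted p under 0.05), 2.03% of 19016 genes varied beyond the trend, and 0 of the 9 beta-tubulin genes, all of which passed the filter on low counts, did. In simulated data that edgeR test recovered 106 of 200 genes raised 4-fold in 1 library, so 0 members does not mean that none varied. TUB1 had an unadjusted p of 0.0168 in that edgeR test and an adjusted p of 0.356. It was the 1 member under an unadjusted p of 0.05, a level that 7.45% of all genes passed. DESeq2 marked none of the members as a dispersion outlier, and 0.121% of all genes. Without replicate 1 the unadjusted p of TUB1 in edgeR's test was 0.972. Against counting error alone (chi-square test with Benjamini-Hochberg adjustment), all 9 members varied, with adjusted p from 2.56e-206 for TUB3 to 2.19e-23 for TUB5, but 78.4% of all genes did so. Without replicate 1, TUB1 no longer passed and the other 8 members did.

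All 9 members had their lowest TMM-scaled CPM in replicate 1, as 43.8% of all tested genes had, and likewise all 9 with DESeq2 size factors, against 44.3% of all genes. Under scaling by total counts 7 of the 9 did, with TUB2 and TUB5 lowest in replicate 2, against 33.7% of all genes. The log2 difference of replicate 1 from the mean of replicates 2 and 3 had a median of −0.54 over the members, against 0.01 over all tested genes, and ran from −1.85 in TUB1 to −0.18 in TUB2. TUB7 (−0.80) and TUB8 (−0.77) came next to TUB1, then TUB3 (−0.59), TUB6 (−0.54), TUB4 (−0.44), TUB9 (−0.40) and TUB5 (−0.27). Summed, the members held 1077, 1407 and 1582 CPM in replicates 1, 2 and 3. Their share of all counts, without TMM, was 0.116% in replicate 1, 0.136% in replicate 2 and 0.152% in replicate 3. The sum was thus lowest in replicate 1 and highest in replicate 3 under either scaling.

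Root markers were also low in replicate 1. The marker lists were chosen with earlier results of these data known. The root list of 14 (root hair, Casparian strip, root cap and nitrate uptake genes) summed to 5.90, 74.1 and 73.2 CPM in replicates 1, 2 and 3. All 7 members of it that could be tested were lowest in replicate 1, against 43.8% of all tested genes. The filter on low counts asks for enough counts in every library, so it also dropped genes that were low in replicate 1 only. One such gene was PRP3, with 5, 276 and 230 counts in replicates 1, 2 and 3. Genes of this kind are missing from the shares over all tested genes as well. In edgeR's goodness-of-fit test 3 of the 7 varied beyond the trend, against 2.03% of all tested genes. In that test, CASP1 (adjusted p = 7.63e-06) and the root hair expansin gene EXPA18 (adjusted p = 0.00974) were among the 3. The nitrate transporter gene NRT2.1 had 0 counts in each library. CASP1, which builds the Casparian strip of the root endodermis, stood at 1.88, 28.0 and 27.6 CPM, and TUB1 at 2.59, 10.7 and 10.6 CPM. Phloem markers summed to 188, 332 and 349 CPM, beside TUB8 at 65.6, 108 and 116 CPM, and 3 of 4 were lowest in replicate 1, against 43.8% of all genes. Most of that sum was the sucrose transporter gene SUC2, at 125, 248 and 263 CPM, and the regulator gene APL was highest in replicate 1, at 18.5, 14.5 and 14.4 CPM. In edgeR's test 0 of 4 phloem markers varied beyond the trend, 0 had an unadjusted p under 0.05, and DESeq2 marked 0. Markers of dividing cells summed to 87.5, 48.4 and 48.5 CPM in replicates 1, 2 and 3, and 4 of 6 were highest in replicate 1, against 45.4% of all genes. The anaphase activator gene CDC20.1 made up much of that sum, at 39.8, 15.9 and 19.8 CPM, and the log2 differences of the 6 ran from −0.74 to 1.89. In edgeR's test 0 of the 6 varied beyond the trend, and DESeq2 marked 0. An unadjusted p under 0.05 in edgeR's test was seen for 2, CDC20.1 and HIK, against 7.45% of all tested genes. The part of these cell types in the beta-tubulin values was not tested. In whole seedlings, fewer cells of a type and less RNA per cell cannot be told apart.

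Pollen markers were at or near 0. Of 9 genes 6 had no count in any library, and the list summed to 1.04, 2.16 and 2.23 CPM in replicates 1, 2 and 3. TUB9 at 60.6 ± 9.83 CPM and the alpha-tubulin gene TUA1, known for its expression in pollen, at 44.7 ± 12.8 CPM (SD, n = 3) were both detected in these seedlings. Exons of TUA1 overlapped other genes over 30.7% of their length, so its value is uncertain.

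**Figure D4:**
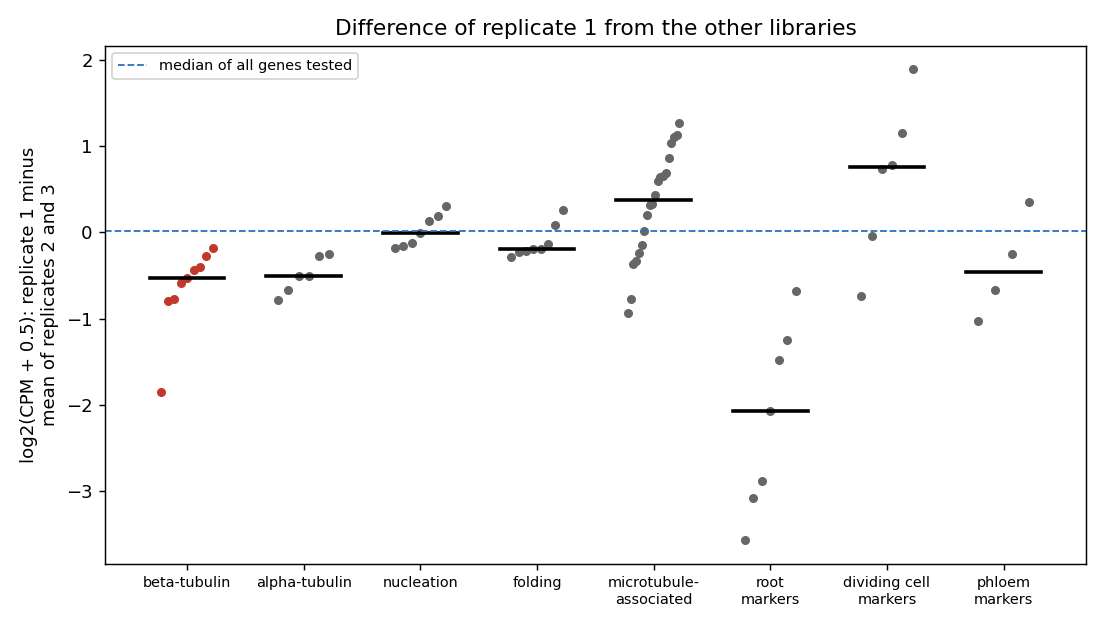
Log2(CPM + 0.5), TMM-scaled, in replicate 1 minus the mean of replicates 2 and 3, with 1 point per tested gene, the median of each list as a black line and the median of all tested genes (0.01) as a dashed line. Beta-tubulin genes (red) and alpha-tubulin genes lie below the dashed line throughout (with total counts, TUB2 and TUB5 are lowest in replicate 2 instead), root markers lie lowest, and more microtubule-associated genes lie above the line than below it.

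Alpha-tubulin is the partner subunit. All 6 alpha-tubulin genes were detected. All had their lowest TMM-scaled CPM in replicate 1, as 43.8% of all tested genes had. Under total counts 5 of 6 did, against 33.7% of all tested genes. The log2 difference of the alpha-tubulin genes, replicate 1 minus the mean of the other libraries, had a median of −0.51. In edgeR's test 0 of 6 varied beyond the trend, 0 of 6 had an unadjusted p under 0.05, and DESeq2 marked 0 as outliers. TUA6 led at 422, 618 and 731 CPM in replicates 1, 2 and 3, followed by TUA4 at 343, 440.1 and 543 CPM and TUA2 at 294, 319.7 and 384 CPM. TUA3 had 122, 137 and 160.5 CPM, and TUA5 91.9, 119.7 and 143 CPM. The summed level per kb was 563, 736 and 829 for beta-tubulin, against 696, 899 and 1075 for alpha-tubulin, in replicates 1, 2 and 3. The ratio of beta- to alpha-tubulin transcripts per kb was therefore 0.809, 0.819 and 0.771, a mean of 0.800 ± 0.0250 (SD, n = 3). The ratio spanned 0.771 to 0.819, while each sum was lowest in replicate 1 and highest in replicate 3. TUA3 and TUA5 shared 15.2% and 16.9% of their 100-base stretches with each other, so their division is uncertain too.

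Genes that nucleate, fold or bind tubulin had medians nearer to 0 or above it. Of 8 genes for nucleation by gamma-tubulin complexes 7 were detected, with the 2 gamma-tubulin genes TUBG1 at 11.2 ± 0.674 and TUBG2 at 11.1 ± 0.983 CPM (SD, n = 3). Their median log2 difference between replicate 1 and the other libraries was −0.01. Of 7 tested, 3 were lowest in replicate 1, against 43.8% of all tested genes, and 0 under total counts, against 33.7%. Per kb, GIP1, a small subunit of the nucleating complex, led this list at 9.09 CPM per kb, followed by TUBG2 at 5.91 and NEDD1, which recruits the complex, at 5.58, and its copy GIP2, overlapped by another gene over 75.8% of its exons, had 0 counts in each library. All 8 tubulin-folding genes were detected, led per kb by the prefoldin gene PFD5 (34.3 CPM per kb), the cofactor gene TFCA (27.7) and the prefoldin gene PFD3 (27.3), with TFCD, whose animal counterpart binds beta-tubulin, lowest at 4.30. Their median log2 difference was −0.19. Of the 8, 6 were lowest in replicate 1, against 43.8% of all tested genes, and 4 under total counts, against 33.7%.

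Among 23 microtubule-associated genes 19 were detected, and 14 of the 20 tested were highest in replicate 1, as were 45.4% of all genes, and under total counts 15 were, against 56.1% of all genes. Their median log2 difference was 0.38. SPR1, a plus-end protein that keeps elongation straight, led per kb at 116 CPM per kb, although another gene overlapped 51.3% of its exons, and it was lowest in replicate 1 at 82.9 CPM against 151 and 168 CPM in replicates 2 and 3. TON2, which is needed for the preprophase band, followed at 34.2 CPM per kb, and CSI1, which links cellulose synthase to microtubules, at 21.0 CPM per kb. MAP65-9 was the lowest, with 1 count in replicate 1 and 0 in the other 2. None of the 7 nucleation, 8 folding and 20 microtubule-associated genes tested varied beyond the trend in edgeR's test, and DESeq2 marked 0 of them as outliers. At an unadjusted p under 0.05 there was 1, the microtubule bundling gene MAP65-7 (unadjusted p = 0.0195, edgeR), against 7.45% of all tested genes. MAP65-7 stood at 54.1, 23.2 and 21.2 CPM in replicates 1, 2 and 3.

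Upstream of the gene starts, TUB2 and TUB3 again resembled each other. Their 250 upstream bases, aligned, were identical at 177 of 206 paired positions (85.9%). Both held the site II motif TGGGCC overlapping its own reverse complement, the match in capitals below. They are shown because the pair is the tandem copy that encodes 1 protein. The sequences are the plus strand of chromosome 5 in RefSeq TAIR10.1, at chr5:25181046-25181295 for TUB2 and chr5:25184008-25184257 for TUB3.
TUB2: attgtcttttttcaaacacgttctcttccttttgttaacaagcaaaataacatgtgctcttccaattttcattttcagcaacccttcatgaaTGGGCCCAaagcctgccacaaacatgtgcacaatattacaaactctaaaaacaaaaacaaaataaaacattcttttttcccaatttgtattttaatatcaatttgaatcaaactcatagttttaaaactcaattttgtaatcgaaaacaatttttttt
TUB3: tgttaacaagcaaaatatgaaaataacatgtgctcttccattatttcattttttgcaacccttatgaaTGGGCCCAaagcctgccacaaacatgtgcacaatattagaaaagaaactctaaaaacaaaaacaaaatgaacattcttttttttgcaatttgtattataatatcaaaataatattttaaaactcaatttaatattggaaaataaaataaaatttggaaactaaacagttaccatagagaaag
On both strands, TGGGCC was found in 3 of the 9 members (TUB2, TUB3 and TUB5) and in 13.7% of 27443 upstream windows of the same length from protein-coding genes. The letters TATAAA of a TATA box were found in 4 members and 47.3% of windows, and the G-box letters CACGTG in 1 member, TUB7, and 6.5% of windows. The mitosis-specific activator core AACGG was found in 2 members and 20.6% of windows, and the I-box core GATAA in 5 members and 54.9% of windows. The telo-box AAACCCTA was found in 0 members and 4.5% of windows. None of these letters was found upstream of TUB1. The overlapping TGGGCC matches of TUB2 and TUB3 are counted once per gene.

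Of 11222 other genes with a mean of at least 10 CPM, 556 (4.95%) had a profile over the 3 libraries within a distance of 0.1 of the summed beta-tubulin profile, the Euclidean distance between centred log2(CPM + 0.5) values. The closest were AT5G66770 (0.00504), the multicopper oxidase-like gene sks5 (AT1G76160, 0.00727), HOG1 (AT4G13940, 0.00854), ABCG20 (AT3G53510, 0.00966) and AT3G18740 (0.00998). With 3 libraries of 1 group, many genes share any profile, and this ranking describes these libraries only.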

How the data were processed

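Raw counts per gene were deposited for 3 wild-type libraries, and no column of another sample was used. The submitters' processing notes list the TAIR10 build with featureCounts 1.6.1, HISAT2 2.1.0 and DESeq2, and give neither role nor order. No source at hand gives the strand setting, annotation, read length or handling of multimapping reads. The members and the 8 gene lists (78 genes) were chosen with earlier results of these data known.

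For CPM, library totals were multiplied by TMM factors (1.08, 0.963 and 0.962) from edgeR 4.0.16 under R 4.3.3. A count of 3, the limit that 0 allows, was 0.0843 to 0.115 CPM. Coordinates, merged exon lengths and sequences came from RefSeq TAIR10.1, to which 37051 of 37336 identifiers (99.24%) matched. Variation was tested on 19016 genes kept by filterByExpr, in an intercept-only edgeR fit with the trended dispersion and TMM factors of the kept genes, and by a chi-square test, both with Benjamini-Hochberg adjustment at 0.05; DESeq2 1.42.0 dispersion outliers were an alternative. With 1 group no contrast was tested. Log2 values used a pseudocount of 0.5 CPM. Proteins were translated from RefSeq coding sequences and aligned with MAFFT 7.526. Both tests were checked on simulated data with 200 genes raised in 1 library. The edgeR test recovered 106 of 200 at 4-fold and 198 of 200 at 16-fold. The chi-square test, on simulated data with counting error only, recovered 200 of 200 at each. All 9 members, the 6 alpha-tubulin and 2 gamma-tubulin genes, the 3 highest and the lowest gene per kb of the other lists, genes past the threshold and the 5 closest profiles could be named. HIK and MAP65-7 fall outside that rule and were named after their values were seen. SciPy 1.17.1 and pandas 2.3.3 under Python 3.11.15 were used. The result of 1 root marker gene is not reported here.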

Additional observations from a re-analysis of the deposited data

How the results depend on the processing

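No paired analysis was possible because all samples form 1 group. The number of members that varied beyond the trend was 0 under DESeq2 size factors, total counts, no filter on low counts, DESeq2 dispersion outliers and without each replicate, and the adjusted p of TUB1 ranged from 0.350 to 1 over these edgeR alternatives. Over all genes the count of 386 became 61, 123 and 128 without replicates 1, 2 and 3, where fewer libraries were tested, and 23 by DESeq2. The share of TUB4 in the family became 22.6% per kb, against 21.2% of counts, and ran from 21.1% to 21.6% without single replicates. Of the 8 steps in the order, 7 kept their direction without length correction (TUB7 to TUB5, −0.01), with stretches of 100 bases found in no other gene (TUB8 to TUB7, −0.04), without replicate 2 (TUB3 to TUB2, −0.04) and without replicate 3 (TUB3 to TUB2, −0.08), and 8 did so under the longest transcript, total counts and without replicate 1. Each step that turned was between genes with overlapping values. Scaling by total counts moved the median log2 difference of replicate 1 to −0.37 over the members and to 0.16 over all genes, and pseudocounts of 0.1 and 2 gave −0.54 and −0.53. Detected genes of the microtubule lists numbered 36 at 5 CPM, against 40 at 1 CPM. The counts of other lists under total counts were chosen after seeing the data. The smallest count of a member was 92, for TUB1 in replicate 1, which sets the widest counting error.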
